A study of Schizosaccharomyces pombe with 40 samples.

Results

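The 6 genes described here encode the central enzymes and chromatin proteins of RNA interference (RNAi) and heterochromatin in the fission yeast Schizosaccharomyces pombe. They are clr4 (SPBC428.08c), swi6 (SPAC664.01c), ago1 (SPCC736.11), dcr1 (SPCC188.13c), chp1 (SPAC18G6.02c) and rdp1 (SPAC6F12.09). They were selected by identifier rather than by a rule on their values, though with earlier results of these data known. They are 6 of the 12684 features of the count table. All 6 had enough reads to be tested, among 12019 features that did.

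Poly(A)+ RNA was sequenced from haploid, h- cells that all carry leu1-32 and pat1-L95G::kanR, an allele that makes the Pat1 kinase sensitive to the inhibitor 3-MB-PP1. Cells of the reference strain, called wt, carry nothing further, and cells called kloopmut also carry snR107kloopmut, in which a conserved motif in the kink-loop of the snoRNA snR107 was replaced by its reverse complement. Both strains were sampled in vegetative growth in EMM (V), after overnight nitrogen starvation (-N), and each hour from 1 to 8 h after addition of 25 µM 3-MB-PP1, which inactivates Pat1 and starts a synchronous meiosis. This gave 2 strains, 10 stages and 2 biological replicates, that is 40 libraries in 20 groups with 22889781 to 35440184 counts each. L-leucine and ammonium chloride were added to the starved cultures together with the inhibitor. Changes relative to -N therefore cannot be assigned to the inhibitor alone. Induction is chemical and acts in haploid cells, so what is described is an ectopic course rather than meiosis of a mated diploid.

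In fission yeast, Dcr1, the Dicer ribonuclease, cuts double-stranded RNA into small RNAs, and Ago1, the only Argonaute, carries them to nascent transcripts. Chp1, a chromodomain protein, sits with Ago1 in the RITS complex, and Rdp1, the RNA-directed RNA polymerase, makes new double-stranded RNA from the transcripts that RITS marks. Clr4, the only methyltransferase for lysine 9 of histone H3, writes the mark that Chp1 and Swi6, an HP1 protein, bind. The pathway is known for silencing pericentromeric repeats, the mating-type region and subtelomeres, and a related silencing acts at some meiotic genes during growth.

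Before the values, the place of each gene matters, because counts of features that share bases may hold the same reads. In 3899 pairs of features, 1 lies wholly inside a host feature of the opposite strand. Only pairs whose host had more than 200 counts were used, 2899 to 3630 of them depending on the library. In these the inner feature had a median of 1.14 to 1.28 times the read density of its host. It had more counts than the host in 3.52% to 5.42% of them. For pairs on the same strand, 38 to 64 per library, the median ran from 0.552 to 1.18. Whether the libraries and the counting kept strand is not given in the sources used here. Coordinates are those of the count table, and are the same for these 6 genes in RefSeq's ASM294v3 annotation. swi6 (I:1702406-1704098, minus strand) shares no base with any other feature and is the member whose counts can be read most plainly. chp1 (I:2210810-2214345, minus) shares 16.0% of its bases with 1 lncRNA feature, rdp1 (I:1324941-1329061, plus) 34.3% with 1, and ago1 (III:334079-337070, plus) 77.3% with 3. All of these overlapping features are on the opposite strand. Of the 3 in ago1, the 2 that lie wholly within it had counts that followed those of ago1 over the 40 libraries, with Pearson r of 0.953 and 0.959 on the log2 scale.

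clr4 and dcr1 share bases with strongly induced protein-coding genes. clr4 (II:453996-458410, minus) is drawn in the annotation with a long 3′ part that contains all of meu6 (SPBC428.07, II:454161-456553, plus), a meiotic gene; meu6 makes up 54.2% of clr4 and none of its coding part (II:456575-458047). dcr1 (III:1504949-1510557, minus) shares 33.9% of its bases with the septin gene spn6 (SPCC188.12, III:1504891-1506851, plus), among them 686 bases of its coding part (III:1506166-1510290). The ends of both coding parts are printed here, from RefSeq's ASM294v3 genome, to show how closely the neighbours meet them. Each runs 5′ to 3′ on the gene's own strand with the stop codon in capitals. The clr4 stretch (II:456575-456604) holds the last 30 coding bases, and 21 further bases lie between it and meu6. The dcr1 stretch (III:1506166-1506195) holds the last 30 coding bases, and all of them lie inside spn6.
clr4: gctaattgtcgtggctggcttttcggtTAA
dcr1: ggagatggaaaagttaaaagtttgactTGA

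swi6, the HP1 gene, rose to a higher level and fell later in kloopmut than in wt cells. Values in RPKM (counts per feature length and library size, in the usual units, with library sizes scaled by TMM factors) are given for replicates 1 and 2 in turn. In wt cells swi6 was at 29.6 and 35.7 in V, 29.9 and 25.7 in -N, 35.3 and 34.9 after 1 h, 43.3 and 41.98 after 2 h and 48.3 and 42.5 after 3 h. It was then at 23.8 and 27.6 after 4 h, 10.1 and 10.6 after 5 h, 5.56 and 4.93 after 6 h, 4.28 and 3.21 after 7 h and 9.90 and 8.92 after 8 h. Thus wt cells had their highest mean at 3 h and their lowest at 7 h, 12.12-fold apart. In kloopmut cells swi6 was at 34.6 and 30.5 in V, 33.9 and 30.1 in -N, 41.1 and 40.8 after 1 h, 60.8 and 50.8 after 2 h and 68.2 and 64.3 after 3 h. It was at 56.9 and 59.99 after 4 h, 41.96 and 43.1 after 5 h, 25.00 and 23.6 after 6 h, 13.4 and 15.7 after 7 h and 10.5 and 13.2 after 8 h. The highest mean was again at 3 h, but the lowest was at 8 h, and the 2 were 5.61-fold apart. Both kloopmut replicates were above both wt replicates at every stage from -N to 8 h, and in V the strains overlapped.

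The strain difference of swi6, as log2 kloopmut minus wt with the SE of the fit, was 0.55 ± 0.13, adjusted p = 0.00206 after 3 h, 1.18 ± 0.13, adjusted p = 3.11e-08 after 4 h and 2.04 ± 0.14, adjusted p = 5.3e-13 after 5 h. It was largest at 6 h, 2.21 ± 0.15, adjusted p = 2.99e-13, which is 4.63-fold, and was 1.95 ± 0.16, adjusted p = 1.03e-11 after 7 h. It was smaller on both sides of this span. At 2 h it was 0.39 ± 0.13, adjusted p = 0.0222, a call that was lost on leaving out any 1 culture. At 8 h it was 0.32 ± 0.14, adjusted p = 0.0528, just short of the threshold. The 8 h difference passed in 4 of 11 alternative fits, among them total counts (0.39, adjusted p = 0.0381) and protein-coding features only (0.33, adjusted p = 0.0362). Without wt replicate 2 the 3 h difference gave 0.43 (adjusted p = 0.0564). Within wt cells swi6 rose from -N to 3 h by 0.71 ± 0.13, adjusted p = 2.45e-05, and at 7 h it had fallen below -N, at -2.88 ± 0.15, adjusted p = 4.36e-16. Within kloopmut cells the corresponding values were 1.05 ± 0.13, adjusted p = 6.36e-08 after 3 h and -1.14 ± 0.13, adjusted p = 1.17e-08 after 7 h.

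**Figure D1:**
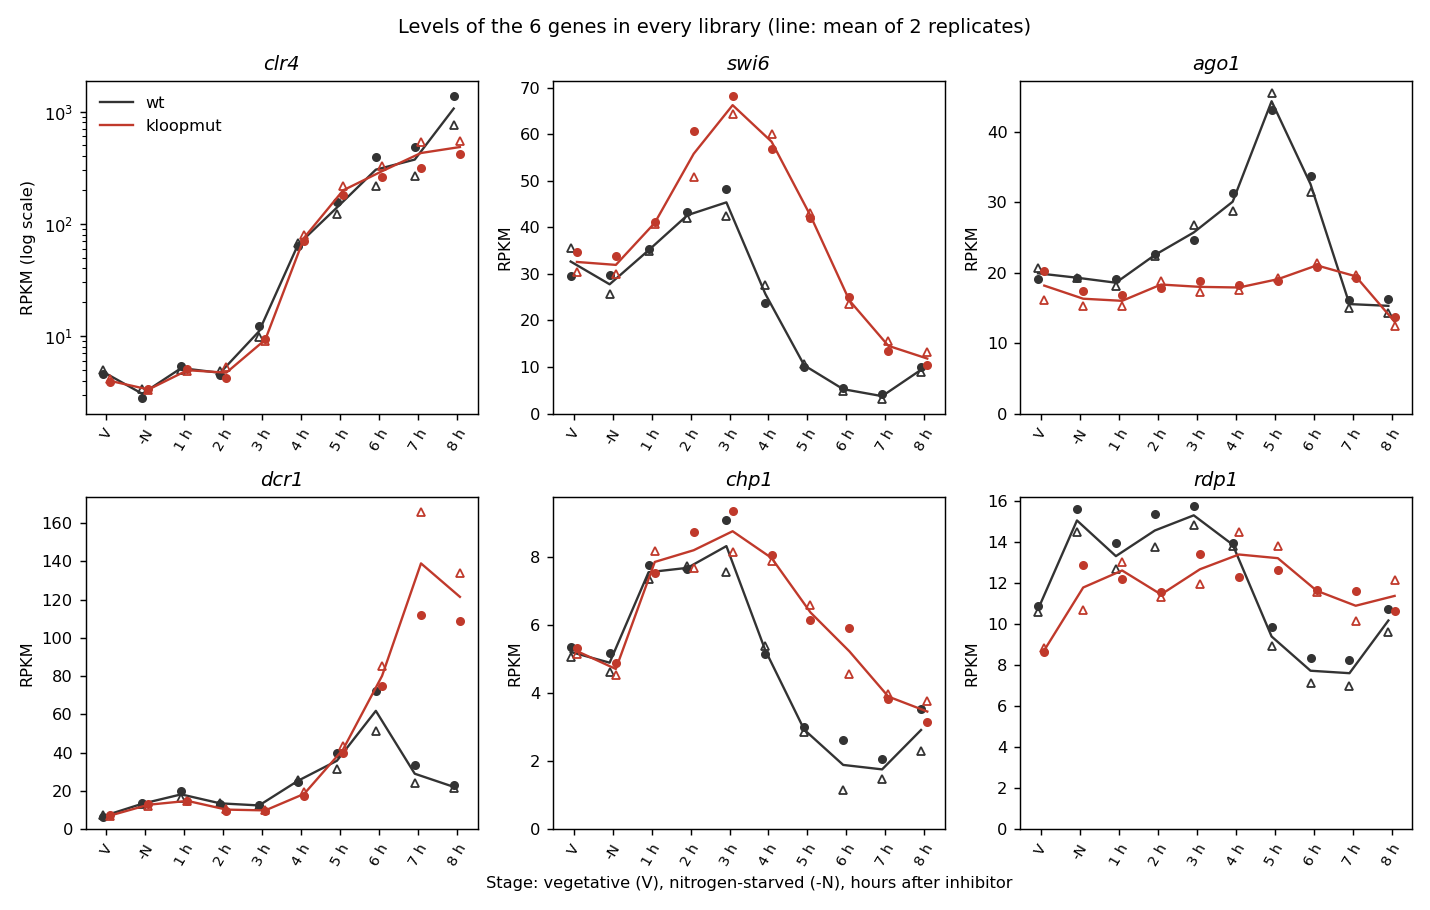
RPKM of the 6 genes (vertical axes, log scale for clr4 only) at the 10 stages in wt (black) and kloopmut (red); filled circles are replicate 1, open triangles replicate 2, and lines join the means of the 2. swi6 and chp1 have their highest means at 3 h in both strains and fall earlier in wt; ago1 reaches 44.3 RPKM at 5 h in wt and stays at or under 21.02 RPKM in the kloopmut means.

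chp1, the chromodomain subunit of RITS, had the same shape at a lower level. Its RPKM in wt cells was 5.18 and 4.62 in -N, 9.10 and 7.55 after 3 h, 5.14 and 5.37 after 4 h, 2.99 and 2.86 after 5 h, 2.62 and 1.16 after 6 h and 2.05 and 1.47 after 7 h. In kloopmut cells it was 4.89 and 4.53 in -N, 9.37 and 8.15 after 3 h, 8.05 and 7.90 after 4 h, 6.15 and 6.60 after 5 h, 5.91 and 4.55 after 6 h and 3.83 and 3.96 after 7 h. In the remaining groups chp1 libraries ran from 2.31 to 7.77 in wt and from 3.14 to 8.74 in kloopmut. The strains overlapped in V, in -N and from 1 to 3 h, were apart from 4 to 7 h with kloopmut higher, and overlapped again at 8 h. The log2 difference was 0.60 ± 0.21, adjusted p = 0.017 after 4 h, 1.12 ± 0.21, adjusted p = 3.98e-05 after 5 h, 1.47 ± 0.23, adjusted p = 2.21e-06 after 6 h and 1.14 ± 0.24, adjusted p = 0.000116 after 7 h. The 4 h call was lost without either kloopmut replicate (adjusted p = 0.114 and 0.131). At 6 h the wt replicates lay more than 2-fold apart, and the log2 difference ran from 0.88 to 2.17 when each culture was left out. Over the 20 group means of log2(RPKM + 0.1), chp1 and swi6 had a Pearson r of 0.976, the highest among the 15 pairs of members; the groups share cultures and the same scaling factors, and r is given as a description.

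rdp1, the RNA-directed RNA polymerase gene, moved less. It was at 10.9 and 10.6 RPKM in V, 15.6 and 14.5 in -N, 15.4 and 13.8 after 2 h, 15.8 and 14.8 after 3 h, 9.88 and 8.92 after 5 h, 8.34 and 7.12 after 6 h and 8.25 and 6.97 after 7 h in wt cells. In kloopmut cells it was at 8.62 and 8.84 in V, 12.9 and 10.7 in -N, 11.6 and 11.3 after 2 h, 12.3 and 14.5 after 4 h, 12.6 and 13.8 after 5 h, 11.7 and 11.6 after 6 h and 11.6 and 10.2 after 7 h. It rose with starvation in both strains, by 0.49 ± 0.12, adjusted p = 0.000837 in wt and 0.43 ± 0.12, adjusted p = 0.00268 in kloopmut, the latter with 0.26 (adjusted p = 0.239) when kloopmut replicate 1 was left out. After induction rdp1 fell in wt, to -0.98 ± 0.12, adjusted p = 2.29e-08 after 7 h relative to -N. The size of this fall depends on the scaling, and total counts gave -2.34. In kloopmut the 8 induced hours did not differ from -N at the threshold (adjusted p = 0.174 over all 8), except under scaling to total counts (adjusted p = 8.57e-11). Between strains rdp1 was lower in kloopmut at 2 h (-0.35 ± 0.12, adjusted p = 0.0257) and higher at 5 h (0.49 ± 0.12, adjusted p = 0.00055), 6 h (0.59 ± 0.12, adjusted p = 9.15e-05) and 7 h (0.52 ± 0.12, adjusted p = 0.000514). The replicates of the strains were apart at each of these 4 stages, and also in V, in -N and at 3 h, where kloopmut was lower without passing the test. At 3 h rdp1 gave -0.27 ± 0.12, adjusted p = 0.0836, and limma-voom (adjusted p = 0.0394) and DESeq2 (adjusted p = 0.0451) called it there. The 2 h call was lost under total counts (adjusted p = 0.139) and on leaving out wt replicate 1 (0.212) or either of the kloopmut replicates (0.0656 and 0.147). The 7 h call was lost without wt replicate 2 (adjusted p = 0.0911) or kloopmut replicate 1 (0.0645).

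ago1, the Argonaute gene, was lower in kloopmut from 4 to 6 h, where swi6 and chp1 were higher. In wt cells its RPKM was 19.1 and 20.6 in V, 19.3 and 19.3 in -N, 19.1 and 18.1 after 1 h, 22.6 and 22.4 after 2 h, 24.6 and 26.8 after 3 h, 31.3 and 28.8 after 4 h and 43.1 and 45.5 after 5 h. It was 33.7 and 31.4 after 6 h, 16.1 and 14.9 after 7 h and 16.2 and 14.3 after 8 h, so with TMM factors wt had 1 peak, at 5 h. In kloopmut cells it was 20.2 and 16.1 in V, 17.4 and 15.2 in -N, 16.8 and 15.2 after 1 h, 17.8 and 18.8 after 2 h, 18.8 and 17.2 after 3 h, 18.2 and 17.6 after 4 h and 18.8 and 19.3 after 5 h. It was 20.7 and 21.3 after 6 h, 19.3 and 19.7 after 7 h and 13.7 and 12.4 after 8 h, and so the highest kloopmut library was at 21.3. The highest and lowest means were 2.90-fold apart in wt and 1.61-fold apart in kloopmut.

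The log2 strain difference of ago1 was -0.52 ± 0.10, adjusted p = 0.000462 after 3 h, -0.75 ± 0.10, adjusted p = 9.22e-07 after 4 h and -1.22 ± 0.10, adjusted p = 4.09e-11 after 5 h, where both kloopmut replicates lay below both wt replicates. At 6 h it was -0.63 ± 0.10, adjusted p = 4.24e-06, and at 7 h the sign turned, 0.33 ± 0.11, adjusted p = 0.0082, a call lost without wt replicate 2 (adjusted p = 0.288) or kloopmut replicate 1 (0.092). At 2 h ago1 gave -0.30 ± 0.10, adjusted p = 0.0288, which did not pass the test on leaving out any 1 culture. Relative to -N, ago1 had risen by 1.20 ± 0.10, adjusted p = 2.56e-11 after 5 h in wt, while the same comparison in kloopmut gave 0.23 ± 0.10, adjusted p = 0.0568. The size of these differences depends on the scaling. TMM factors ran from 0.513 to 1.47, and scaling to total counts shifted the log2 differences kloopmut minus wt upward by 0.20 at 4 h, by 0.62 at 5 h, by 0.80 at 6 h and by 0.42 at 7 h. Under that scaling ago1 was still lower in kloopmut at 3 h (-0.53, adjusted p = 0.00117), 4 h (-0.54, adjusted p = 0.000315) and 5 h (-0.59, adjusted p = 4.94e-05), but at 6 h the sign was reversed (0.16, adjusted p = 0.204). The rise of ago1 from -N in wt was then 0.47 at 3 h, 0.54 at 4 h and 0.58 at 5 h, a much flatter course than with TMM factors.

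**Figure D2:**
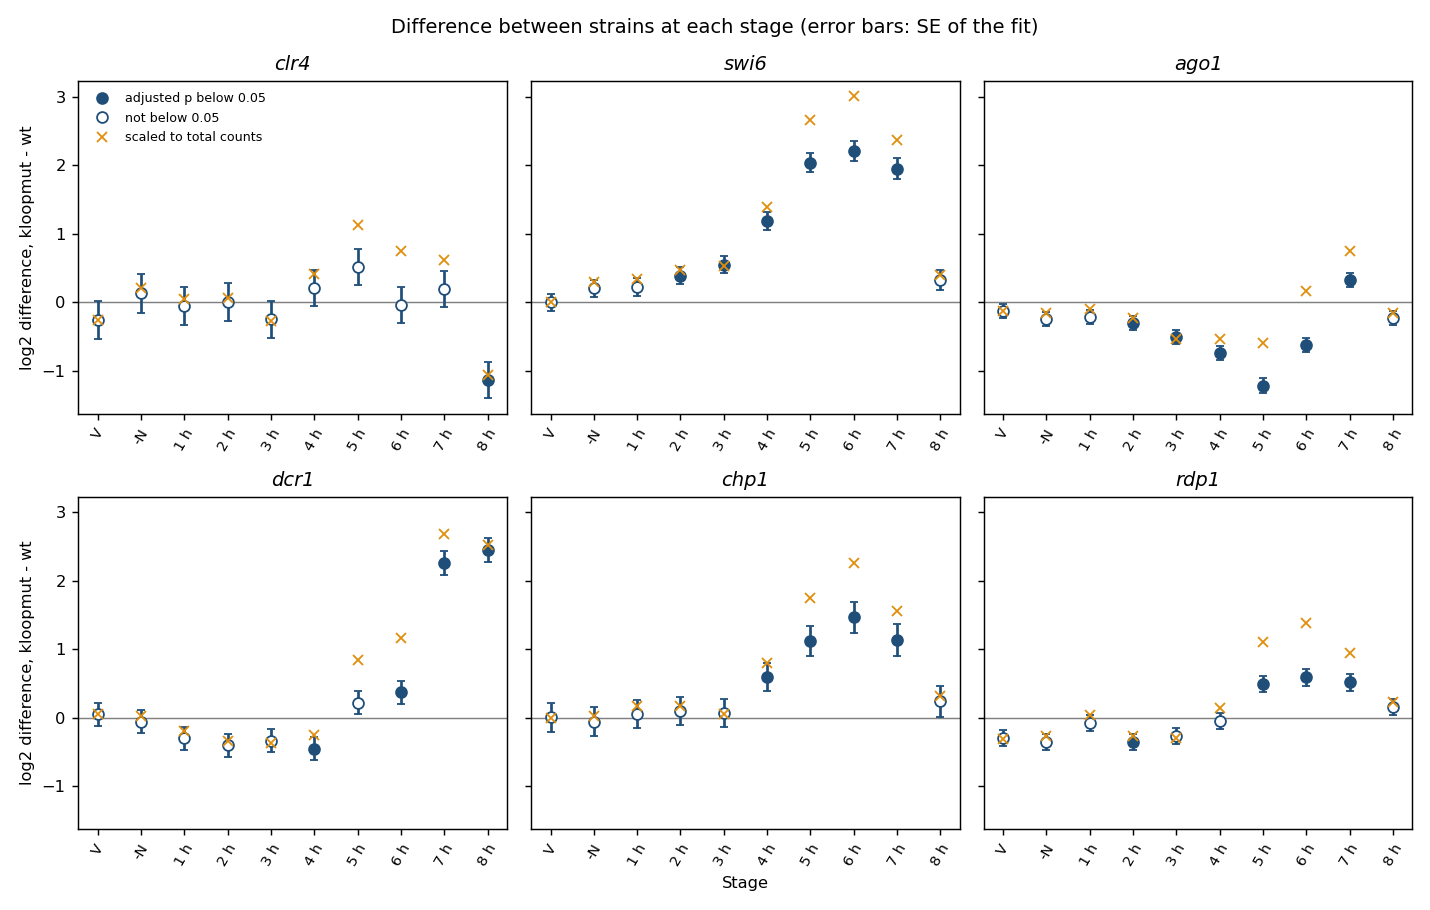
Log2 difference kloopmut minus wt (vertical axis) at each stage; circles are the TMM-scaled fit with its SE, filled where the adjusted p was below 0.05, and orange crosses are the values after scaling to total counts. swi6, chp1 and rdp1 lie above 0 from 5 to 7 h under both scalings; ago1 lies below 0 from 3 to 5 h under both, and at 6 h the 2 scalings fall on either side of 0.

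For dcr1, the Dicer gene, the feature count rose late and most in kloopmut, and moved with its neighbour spn6. The RPKM of dcr1 in wt cells was 6.21 and 7.44 in V, 13.6 and 13.1 in -N, 24.8 and 25.8 after 4 h, 39.9 and 31.7 after 5 h, 72.4 and 51.4 after 6 h, 33.7 and 24.3 after 7 h and 22.99 and 21.3 after 8 h. In kloopmut cells it was 7.33 and 6.78 in V, 13.4 and 12.2 in -N, 17.4 and 19.6 after 4 h, 39.8 and 43.8 after 5 h, 74.8 and 85.6 after 6 h, 112 and 166 after 7 h and 109 and 134 after 8 h. At 7 and 8 h every kloopmut replicate was above every wt replicate, with log2 differences of 2.26 ± 0.18, adjusted p = 5.76e-12 and 2.46 ± 0.18, adjusted p = 7.19e-12. Earlier, dcr1 was lower in kloopmut at 4 h (-0.45 ± 0.17, adjusted p = 0.0255) and higher at 6 h (0.37 ± 0.17, adjusted p = 0.0494). The first of these was lost in 3 of 4 cases of leaving out 1 culture and under total counts (-0.25, adjusted p = 0.213). The second was lost in 3 of 4 cases too, with 0.03 (adjusted p = 0.885) without wt replicate 2, and with DESeq2 (adjusted p = 0.288), protein-coding features only (0.111) and the stage alone (0.0623), while total counts gave 1.16 (adjusted p = 5.36e-07). spn6 differed by 2.24 ± 0.18 at 7 h and 2.52 ± 0.18 at 8 h. Over the 40 libraries the log2 counts of dcr1 and spn6 had r = 0.990, and spn6 had more counts than dcr1 in 4 libraries although it is the shorter feature. dcr1 rose with starvation in both strains, by 0.97 ± 0.17, adjusted p = 2.73e-05 in wt and 0.86 ± 0.17, adjusted p = 0.000118 in kloopmut, beside 1.54 ± 0.18 and 1.51 ± 0.18 for spn6.

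The lncRNA feature SPNCRNA.7401 (III:1508711-1510105, opposite strand) lies over 1395 coding bases of dcr1 that spn6 does not reach. Its counts stayed between 58 and 337 in all 40 libraries, and their r with dcr1 on the log2 scale was -0.017. Its log2 strain difference was 0.36 ± 0.41, adjusted p = 0.458 at 7 h. At 8 h it was at 4.92 and 3.87 RPKM in wt and 5.66 and 2.31 in kloopmut, and the log2 strain difference there was -0.13 ± 0.41, adjusted p = 0.811. The strain difference of the dcr1 feature at 7 and 8 h was thus not seen in the counts of SPNCRNA.7401. Whether those counts include reads of dcr1 is not known. In these counts kloopmut was lower at 4 h (-1.14 ± 0.39, adjusted p = 0.0178), 5 h (-1.36 ± 0.40, adjusted p = 0.00357) and 6 h (-1.10 ± 0.40, adjusted p = 0.016).

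clr4, the methyltransferase gene, had the widest range of the 6 features, and that range followed meu6. In wt cells clr4 was at 4.62 and 4.94 RPKM in V, 2.78 and 3.34 in -N, 12.3 and 9.74 after 3 h, 63.2 and 67.03 after 4 h, 156 and 123 after 5 h, 391 and 217 after 6 h, 481 and 267 after 7 h and 1373 and 755 after 8 h. In kloopmut cells it was at 3.86 and 4.13 in V, 3.38 and 3.30 in -N, 9.47 and 9.08 after 3 h, 70.6 and 80.2 after 4 h, 182 and 216 after 5 h, 264 and 325 after 6 h, 316 and 539 after 7 h and 415 and 552 after 8 h. meu6 had r = 0.999 with clr4 over the 40 libraries on log2 counts, and exceeded it in counts in 16 of them. The clr4 feature differed between strains at 8 h, -1.14 ± 0.27, adjusted p = 0.000743, and meu6 then differed by -1.31 ± 0.28, adjusted p = 0.000239. At 5 h clr4 gave 0.51 ± 0.26, adjusted p = 0.0864, but passed the test under total counts (1.13, adjusted p = 0.000379), without wt replicate 1 (0.70, adjusted p = 0.0244) and with the stage fitted alone (0.57, adjusted p = 0.00181). At 7 h it passed under total counts (0.61, adjusted p = 0.0385) and without wt replicate 1 (0.68, adjusted p = 0.0296), and at 6 h under total counts (0.74, adjusted p = 0.0118).

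SPNCRNA.4728 (II:456671-458233, opposite strand) lies over 1377 of the 1473 coding bases of clr4 and shares no base with meu6. Its RPKM in wt cells was 3.95 and 3.74 in V, 1.06 and 1.92 in -N, 21.4 and 20.2 after 4 h, 44.2 and 43.7 after 5 h, 30.8 and 33.95 after 6 h, 14.6 and 12.10 after 7 h and 11.7 and 10.8 after 8 h. In kloopmut cells it was 3.49 and 3.83 in V, 1.78 and 2.47 in -N, 8.93 and 9.33 after 4 h, 17.9 and 17.99 after 5 h, 26.2 and 27.6 after 6 h, 25.1 and 25.3 after 7 h and 14.6 and 15.5 after 8 h. These counts thus peaked at 5 h in wt and at 6 h in kloopmut, at a level far under that of the whole clr4 feature. Kloopmut was lower at 4 h (-1.19 ± 0.17, adjusted p = 2.48e-06) and 5 h (-1.29 ± 0.17, adjusted p = 1.53e-07) and higher at 7 h (0.91 ± 0.18, adjusted p = 4.92e-05). Whether these reads came from clr4 mRNA or from the lncRNA cannot be told apart, since it is not known if libraries and counting kept strand.

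**Figure D3:**
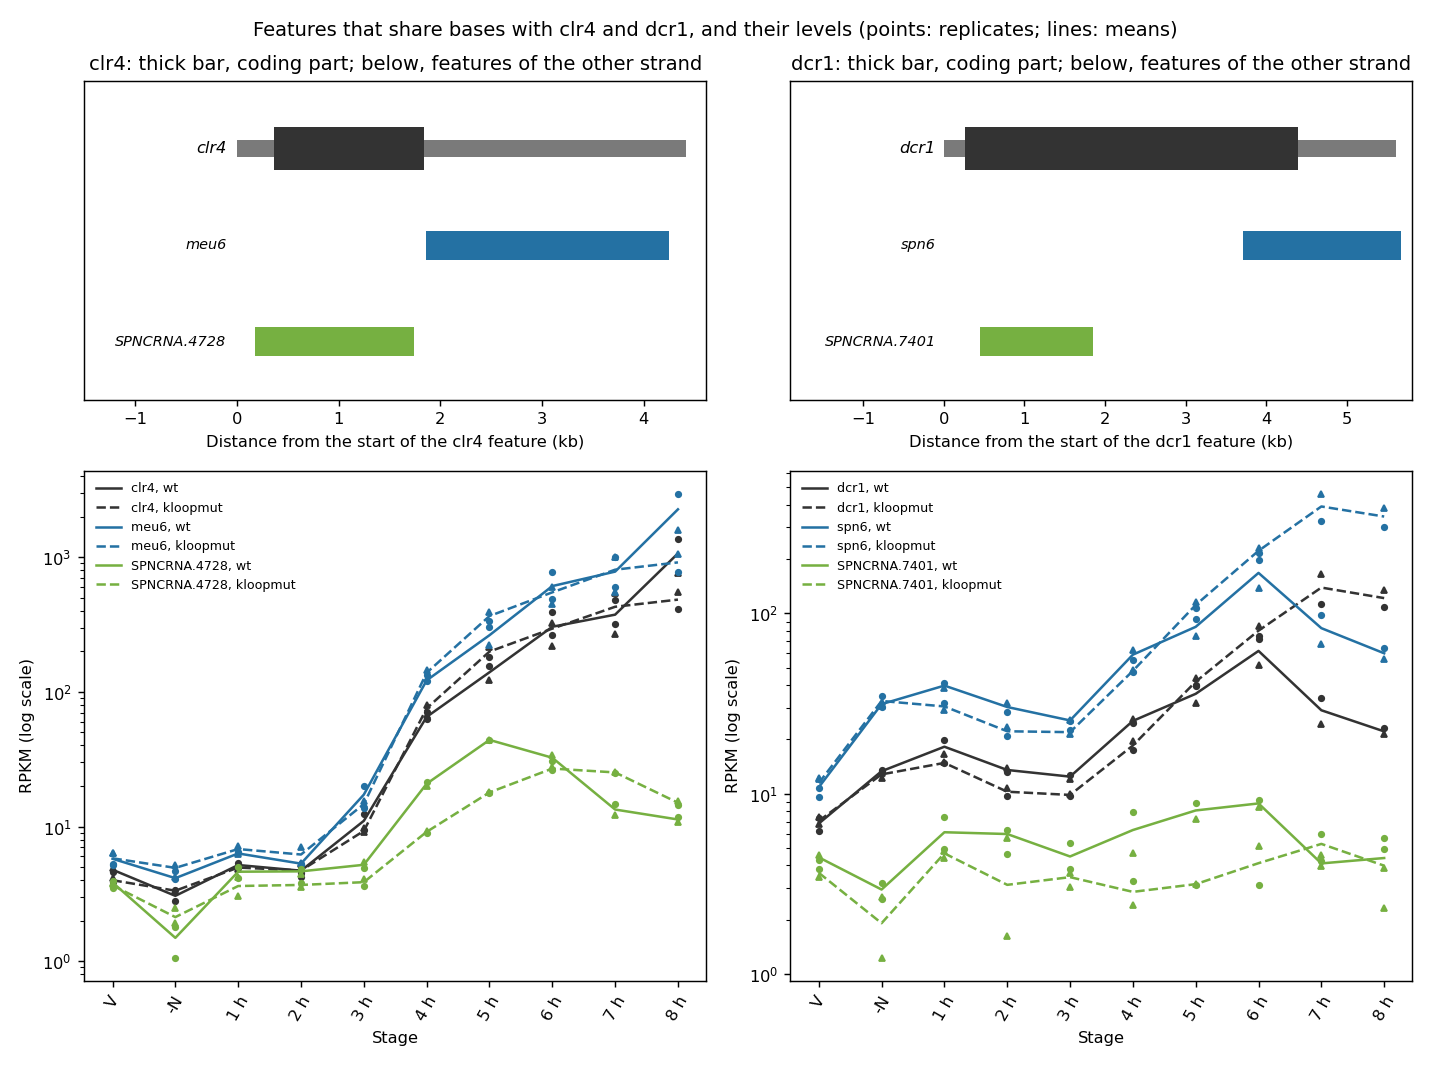
Upper panels: the clr4 and dcr1 features drawn to scale by distance from their start in kb, with the coding part thick, above the opposite-strand features that share their bases; lower panels: RPKM (log scale) of the same features by stage, points for replicates, solid lines for wt means and dashed lines for kloopmut means. clr4 runs parallel to meu6 and dcr1 to spn6, while SPNCRNA.4728 falls after its peak of 43.9 RPKM at 5 h in wt and SPNCRNA.7401 stays below 10 RPKM.

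Across all features, 96.1% changed over the 8 induced hours relative to -N in wt and 92.7% in kloopmut (edgeR's quasi-likelihood F test with Benjamini-Hochberg adjustment); of the members, 6 of 6 changed in wt and 5 of 6 in kloopmut, rdp1 being the exception. The course differed between strains (strain by time interaction) in 6 of 6 members against 81.8% of all features, so that the members' share was near the background. With starvation, 55.6% of features changed in wt and 56.1% in kloopmut, and of the members 2 of 6 in each strain, rdp1 and dcr1, both higher in -N. In V, 5.94% of features differed between strains, in -N 0.532% and at 1 h 1.76%; no member passed the test at these stages with edgeR or DESeq2. At an unadjusted p under 0.05 there was 1 member in V (rdp1), 2 in -N (rdp1, ago1) and 1 at 1 h (ago1), and limma-voom called 1 in -N. The background at these stages was unstable when 1 culture was left out, which leaves 1 library in its groups. Leaving out 1 culture gave 33 (without kloopmut replicate 2) to 2654 (without wt replicate 2) called features in V against 714, 2 to 33 in -N against 64 and 3 to 128 at 1 h against 212.

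From 2 h on more features differed between the strains. At 2 h 29.5% of features and 3 of 6 members passed the test, of which at most 1 was left when any culture was left out, and at 3 h 26.8% and 2 of 6. The 2 h background was unstable too, with 3543 called features against 1419 without kloopmut replicate 2, 1951 without wt replicate 1 and 539 with the stage fitted alone. At 3 h the 3223 called features became 1668 without kloopmut replicate 2 and 2095 without wt replicate 2. At 4 h the values were 50.9% and 4 of 6, at 5 h 69.4% and 4 of 6, at 6 h 68.5% and 5 of 6, and at 7 h 65.1% and 5 of 6. At 8 h they were 53.3% and 2 of 6, which were clr4 and dcr1, the features that overlap meu6 and spn6. In the mean of 1 to 8 h 77.9% of features differed, 39.3% being higher and 38.5% lower in kloopmut, and 5 of 6 members differed. Of these, swi6 (1.11 ± 0.048, adjusted p = 1.44e-17), chp1 (0.60 ± 0.076, adjusted p = 4.39e-08), dcr1 (0.48 ± 0.059, adjusted p = 2.96e-08) and rdp1 (0.13 ± 0.042, adjusted p = 0.0075) were higher, and ago1 (-0.44 ± 0.036, adjusted p = 8.13e-12) was lower. For each of the 5, all 4 comparisons of a kloopmut with a wt culture had the same sign. The fit took the 8 hours of a culture as separate libraries, so these p-values do not measure the spread between cultures. Over the alternatives, 1 value per culture among them, the highest adjusted p was 0.00112 for swi6, 0.00379 for ago1, 0.0119 for chp1 and 0.018 for dcr1. The rdp1 call was lost on leaving out wt replicate 2 (0.02, adjusted p = 0.757), either kloopmut replicate, or on using 1 value per culture. clr4 gave -0.07 ± 0.095, adjusted p = 0.499 and was split 2 against 2. Under total counts 72.4% of all calls in this mean were higher in kloopmut, against 50.5% with TMM factors, ago1 was at -0.15 (adjusted p = 0.00129) and clr4 at 0.21 (adjusted p = 0.0413).

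The induced kloopmut libraries resembled earlier hours of the wt course. Each was placed at the wt time, interpolated in steps of 0.1 h, with the highest Pearson correlation over 5069 protein-coding genes without the members. The 1 h libraries fell at 1.0 h, those of 4 h at 3.2 h, those of 5 h at 3.9 h, those of 6 h at 4.4 and 4.5 h and those of 8 h at 6.5 h. Markers moved likewise: rec8, the meiotic cohesin subunit gene, had its highest mean at 3 h in wt (39.4 RPKM) and at 4 h in kloopmut (42.01 RPKM), and spo5, a meiotic RNA-binding protein gene, at 4 h (1498 RPKM) and 5 h (1379 RPKM).

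At the matched wt time the members still differed from wt in several directions, as a description without a test. swi6 was above the matched wt value in all 16 induced kloopmut libraries, by 0.22 in the mean at 1 h, by 0.58 at 3 h, by 0.50 at 6 h and by 1.39 at 8 h on the log2 scale. chp1 lay within 0.21 of it in the mean up to 5 h, and above it by 0.79 at 7 h and 0.88 at 8 h. ago1 was below the matched wt value in all 16 libraries, with mean differences of -0.44 at 3 h, -0.63 at 5 h and -0.89 at 7 h. rdp1 was at -0.31 at 2 h, -0.002 at 6 h and 0.56 at 8 h. For ago1 in particular, the level of 44.3 RPKM that wt reached at 5 h was reached in no kloopmut library, including those of 7 h, which were placed at 5.6 and 5.7 h. The same step gave 2.25 for clr4 at 4 h and 1.43 for dcr1 at 6 h, the features that overlap meu6 and spn6.

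**Figure D4:**
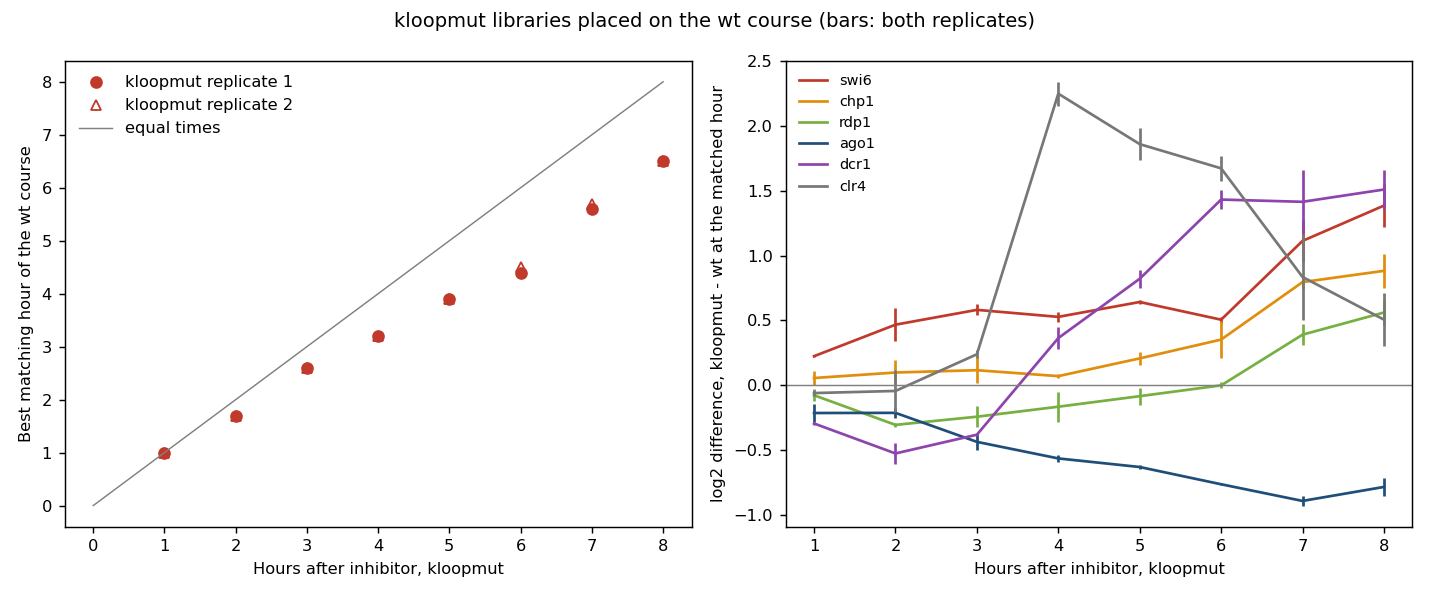
Left: the wt hour that each induced kloopmut library matched best, against its own hour, with a line for equal times. Right: log2 difference of each member between kloopmut and the wt value at the matched hour, lines for means and bars for the 2 replicates; swi6 lies above 0 throughout and ago1 below 0 throughout, reaching -0.89 at 7 h.

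The order of the stages shows how finely each gene can be ranked. With means sorted from high to low, the replicate ranges of neighbours were apart for 7 of the 9 neighbouring pairs in ago1 in wt and 4 of 9 in kloopmut, and for 5 and 7 of 9 in swi6. For chp1 and rdp1 only 2 of 9 were apart in wt. So swi6 had its top at 3 h in both strains, with 2 h within the spread of 3 h in wt; in chp1, 3 h could not be ranked above 2 h in either strain; and in rdp1, 3 h, -N, 2 h, 4 h and 1 h followed each other in wt with overlapping ranges. At 3 h in wt, the levels per length were in the order swi6 (45.4 ± 4.06 RPKM, SD, n = 2), ago1 (25.7 ± 1.58 RPKM), rdp1 (15.3 ± 0.67 RPKM) and chp1 (8.32 ± 1.09 RPKM); clr4 and dcr1, which overlap induced protein-coding genes, are left out of this order, and the lncRNA features over 77.3% of ago1 and 34.3% of rdp1 limit their places in it.

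The protein-coding genes whose group means were most like each member's were found among features that share no base with it. For swi6 they were mrpl28, a mitochondrial ribosomal protein gene, with r = 0.991 over the 20 groups, prp40, a splicing factor gene (0.987), and oxs1 (0.987). For chp1 they were set1, the methyltransferase gene for lysine 4 of histone H3 (0.983), cog8 (0.979) and sim3, a histone chaperone gene (0.978). rdp1 was most like atg11 (0.926), cwf29 (0.919) and cyp9 (0.909), and ago1 most like dbl2 (0.920), sec6, an exocyst subunit gene (0.908), and naa35 (0.888). The dcr1 feature was most like exo1, an exonuclease gene (0.977), mcp4 (0.969) and SPAC16E8.05c (0.968), and the clr4 feature most like mug103 (0.981), wtf18 (0.965), which belongs to a family of near-identical genes, and SPCC1739.08c (0.962).

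Partners of the 6 proteins were counted from lists. Their p-values for the mean of 1 to 8 h come from the same fit, which took the hours of a culture as separate libraries. Of 8 RNAi partners, 6 passed the test in the mean of 1 to 8 h, 5 higher and 1 lower in kloopmut, beside the 39.3% and 38.5% of all features. ers1, needed for RNAi-dependent silencing, was higher by 0.84 ± 0.065, adjusted p = 1.72e-12. arb2 (0.80 ± 0.093, adjusted p = 8.08e-09) and arb1 (0.61 ± 0.056, adjusted p = 7.18e-11), which encode the Argonaute chaperone, and tas3 (0.56 ± 0.056, adjusted p = 4.53e-10), the RITS subunit that joins Chp1 to Ago1, were higher too. The direction of these 4 was kept under total counts, a scaling that raised the mean difference of each. Under it 7 of the 8 were called, all higher, beside 6758 of 12019 features called higher. All 8 passed the interaction test, beside 81.8% of all features. At 8 h alone 6 of the 8 passed, beside 53.3% of all features. Of these, 2 were higher and 4 lower in kloopmut, with arb1 and arb2 among the lower. With starvation 7 of the 8 passed in wt and 6 in kloopmut, all higher in -N, beside 55.6% and 56.1% of all features that changed in either direction.

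The counts of the other lists stand beside 77.9% of all features that passed in this mean, 39.3% higher and 38.5% lower. Of 3 genes of CLRC, the ubiquitin ligase complex around Clr4, 3 passed, 2 higher and 1 lower: raf2 (0.30 ± 0.052, adjusted p = 5.67e-06), rik1 (0.18 ± 0.054, adjusted p = 0.00449) and the cullin gene cul4 (-0.20 ± 0.054, adjusted p = 0.00173). The sign of cul4 turned under total counts (0.09, adjusted p = 0.19), and the calls of rik1 and cul4 held in 2 of the 4 cases of leaving out 1 culture. Of 7 SHREC and deacetylase genes 7 passed, 5 higher and 2 lower. chp2, the second HP1 gene, was higher by 0.76 ± 0.075, adjusted p = 3.55e-10 and sir2, a deacetylase gene, by 0.51 ± 0.086, adjusted p = 4.87e-06. clr3, the SHREC deacetylase gene, was lower, at -0.52 ± 0.042, adjusted p = 5.56e-12, as was clr2, a further subunit gene, at -0.45 ± 0.081, adjusted p = 1.2e-05. Under total counts clr3 remained lower (-0.23, adjusted p = 1.62e-05), and clr2 gave -0.17 (adjusted p = 0.0872). At 8 h alone 4 of the 7 passed, all lower in kloopmut and sir2 among them, beside 53.3% of all features.

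Of 4 genes whose products oppose heterochromatin, 4 passed, beside 77.9% of all features. leo1 (1.05 ± 0.056, adjusted p = 8.39e-16) and paf1 (0.46 ± 0.060, adjusted p = 8.59e-08), subunit genes of the Paf1 complex, and mst2 (0.38 ± 0.040, adjusted p = 9.35e-10), a histone acetyltransferase gene, were higher. epe1, the anti-silencing factor gene, was lower, at -0.46 ± 0.053, adjusted p = 8.83e-09, and at -0.17 (adjusted p = 0.00764) under total counts. At 8 h alone 4 of the 4 passed, 2 higher and 2 lower, with paf1 among the lower, beside 53.3% of all features. In the mean of 1 to 8 h, 3 of 4 genes at sites known to carry heterochromatin in growing cells passed, beside the same 77.9%. Of the 3, 2 were higher and 1 was lower. ssm4, a dynactin subunit gene, was higher in that mean by 0.83 ± 0.092, adjusted p = 3.45e-09. By stage, ssm4 was called higher in kloopmut at 2 h and from 4 to 6 h, but lower at 7 and 8 h. mei4, the meiotic forkhead factor gene, gave 0.05 ± 0.054, adjusted p = 0.392 although its course differed between strains (adjusted p = 9.84e-12). The remaining 2, the near-identical subtelomeric copies tlh1 and tlh2, passed with opposite signs. They stayed under 1 RPKM in every group and are not described further.

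**Figure D5:**
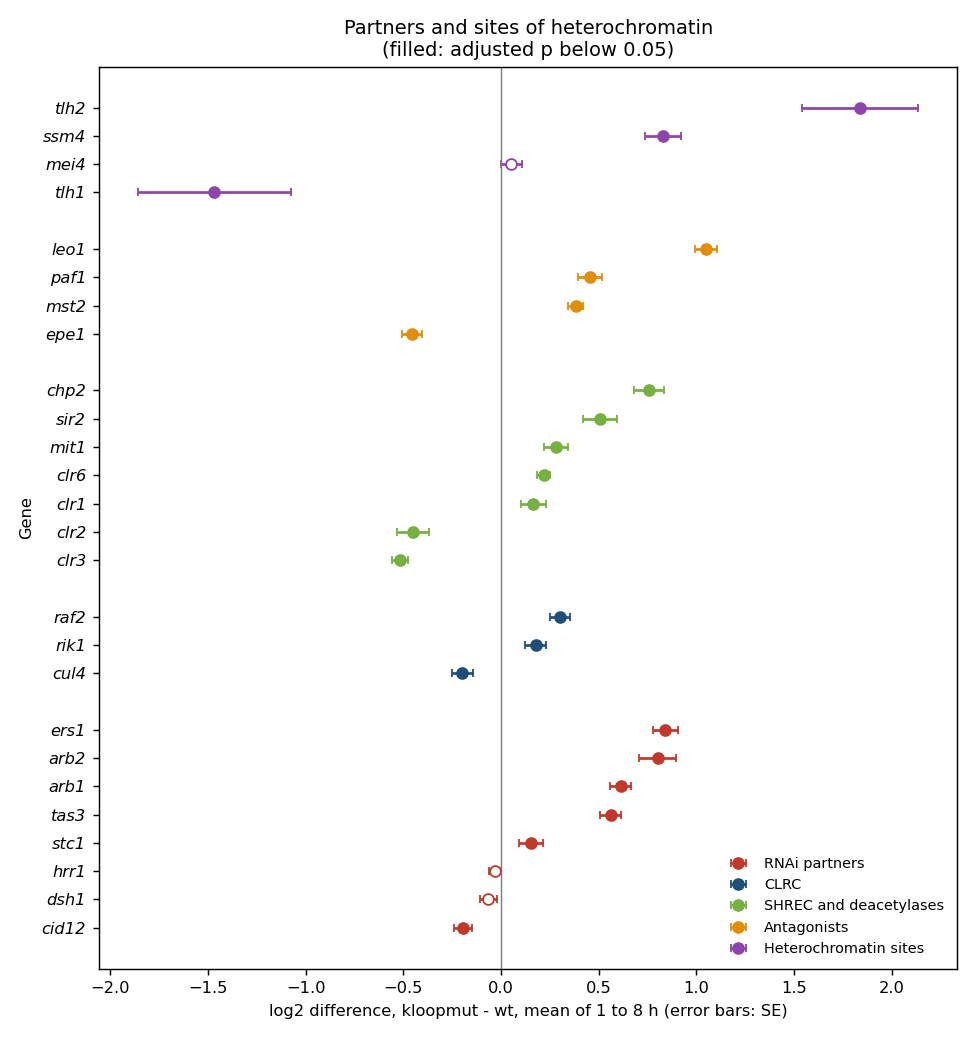
Log2 difference kloopmut minus wt in the mean of 1 to 8 h (horizontal axis, bars for the SE of the fit) for the genes of the 5 lists, filled where the adjusted p was below 0.05. leo1, ers1, arb2 and chp2 are among the highest and clr3, epe1 and clr2 among the lowest of the genes above 1 RPKM.

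The windows before the genes were searched for 3 motifs of meiotic or starvation-linked transcription factors. In the 300 bases from 250 before to 50 after the annotated start, on both strands, GTAAACA (Mei4) was found in 16.5% of 5107 protein-coding genes, ACGCGT (MBF) in 3.25% and TTCTTTGTT (Ste11) in 2.00%. None of the 3 was found in the window of any of the 6 members, which says only that these letters are absent from these windows. TNAAAC, the core of the motif bound by the RNA-binding protein Mmi1, which directs meiotic transcripts to decay, was counted on the coding strand of the whole gene. The members had 1.34 matches per kb in ago1 to 1.81 in clr4, around the median of 1.65 over 5108 genes, whose middle 50% ran from 1.00 to 2.37. The 3 matches in swi6 are shown because it overlaps no other feature; all are coding, and begin 357, 586 and 876 bases from the annotated start. They are at I:1703727-1703752, I:1703498-1703523 and I:1703208-1703233 in ASM294v3, minus strand, with the match in capitals and 10 bases on each side.
swi6 match 1: gaaaaggtttTAAAACaccgtatggc
swi6 match 2: caaagtctcgTAAAACtgatgaagat
swi6 match 3: gagctgacggTTAAACaagtagaaaa

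Some facts of the whole series bear on these values. Replicates correlated with r from 0.946 (wt V) to 0.988 (kloopmut 5 h) across features, which are not independent replicates, and no pair agreed within sampling noise. mfm1, an M-factor gene of h- cells, was at 39430 RPKM in wt -N, and map2, the P-factor gene of h+ cells, at 0.12 RPKM. RPKM are shares of a library, so in these bulk samples fewer cells in a stage and less RNA per cell cannot be told apart, and at 8 h a single spore gene, isp3, was at 157200 RPKM in wt and 108300 in kloopmut.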

How the data were processed

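Poly(A)+ libraries of 40 samples were analysed. The authors deposited a single table of read counts per feature, neither normalized nor pooled: reads were trimmed with fastp 0.23.1, aligned with STAR 2.6.1d and counted with featureCounts (Subread 2.0.6). Genome release, strand setting and treatment of shared reads are not given in the sources used here. The table's feature lengths, another deposited column, were used for RPKM. Column names sat 1 place to the right of the data and were moved back.

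The 6 members and all gene lists were chosen with earlier results of these data known. Of 12684 features, 12602 were found in RefSeq's ASM294v3 annotation and 12594 had its coordinates; all 36 listed symbols were found, and 1 further listed gene is not reported here. filterByExpr kept 12019 features and removed 665. edgeR 4.0.16 (R 4.3.3) fitted 20 group means (quasi-likelihood, TMM, 20 residual degrees of freedom, common dispersion 0.0197), checked on simulated data. Two-sided p-values were adjusted over all features (Benjamini-Hochberg), with 0.05 as threshold. The labels call the replicates biological; 3 counts in a library corresponded to 0.0846 to 0.131 CPM, counting error only. P-values measure only the spread between these samples. Samples of a strain with equal replicate number were treated as 1 culture, so its stages are not independent.

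Listed genes were named where they passed the mean difference or the interaction with at least 1 RPKM in a group, at most 4 per list by size of difference; the 3 most alike genes were named per member. The marker lists had map3 and mam2 under the wrong mating type and are described by single genes. Alternatives were total-count scaling, DESeq2 1.42.0, limma-voom (limma 3.58.1), no filter, protein-coding features only, a replicate block, leaving out each culture, each stage alone, and 1 value per culture.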

Additional observations from a re-analysis of the deposited data

Results flagged for a closer look

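In all 6 genes the change over the 8 induced hours relative to -N differed between wt and kloopmut, by edgeR's quasi-likelihood interaction test adjusted over all features, of which 81.8% passed. The adjusted p was 1.08e-11 for swi6, 2.69e-12 for dcr1, 2.86e-08 for ago1, 3.43e-06 for rdp1, 0.000101 for chp1 and 0.0191 for clr4. Over the alternatives swi6, dcr1, ago1, rdp1 and chp1 were called in 11 of 11, with a highest adjusted p of 0.0412 (chp1), and clr4 in 8 of 11, with a range from 0.000293 to 0.181. The dcr1 and clr4 features overlap spn6 and meu6, which had adjusted p of 5.22e-12 and 0.00835 in the same test.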

How the results depend on the processing

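Of 176 recomputed counts of members called, 163 stayed within 1.5 times the value given. Of 2112 recomputed values of single genes 1965 kept their side of the threshold, 74 lost the call, 64 gained it and 9 reversed. Reversed means a change of sign with a call in either fit. Changes of sign without a call in either fit are among the 1965, and tests over all 8 hours have no direction. All 9 reversals came with scaling to total counts: at 6 h clr4 gave 0.74 and ago1 0.16 (kloopmut minus wt), clr4 0.21 in the mean of 1 to 8 h, ago1 at 6 h minus -N -0.46 in wt and -0.14 in kloopmut, ago1 at 7 h minus -N -0.76 in kloopmut, dcr1 -0.23 at 7 h and -0.42 at 8 h minus -N in wt, and swi6 0.37 in -N minus V in kloopmut. That scaling moved all log2 values of wt by -1.16 at 8 h relative to -N. Of the members called at 2 h, 3 became 1 under total counts and 0 in the stage alone. Limma-voom called 1 in -N and protein-coding features alone 4 at 8 h. Leaving out 1 culture gave 0 to 1 at 2 h, 1 to 2 at 3 h (lowest without wt replicate 2), 2 to 3 at 4 h (lowest without kloopmut replicate 1), 3 to 6 at 7 h (lowest without wt replicate 2 or kloopmut replicate 1) and 1 to 2 for starvation in kloopmut (lowest without kloopmut replicate 1). The cause of these changes was not tested. Deviations of libraries with equal replicate number had r from -0.079 to 0.202 between strains. Between neighbouring stages of 1 strain r ran from 0.024 to 0.199 in wt and from 0.007 to 0.464 in kloopmut. As these ranges overlap, r cannot tell whether replicate numbers pair the strains. With the replicate block 5 of 6 members were called in the mean of 1 to 8 h, as without it.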
